A study of Sus scrofa with 16 samples.

Results

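The growth hormone and insulin-like growth factor (IGF) axis was read through 10 genes named by symbol: the growth hormone receptor GHR, the ligands IGF1 and IGF2, the receptor IGF1R, the binding proteins IGFBP1, IGFBP2, IGFBP3, IGFBP4 and IGFBP5, and IGFALS, the acid-labile subunit. A probe was taken for a gene when the array annotation gave that symbol as its gene name or in brackets in its description. All 10 genes were found, of 6049 genes with a symbol on the array, and they were read by 23 of 43603 probes. GHR had 4 probes, IGF1 3, IGF2 5, and IGF1R, IGFBP1, IGFBP2 and IGFBP4 had 2 each, while IGFBP3, IGFBP5 and IGFALS had 1 each.

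Growth hormone from the pituitary binds GHR, which is abundant in liver, and hepatocytes respond by making IGF1 and IGFALS. In blood most IGF1 and IGF2 travels bound to IGFBP3 and IGFALS, the other binding proteins carry the rest, and transcription of IGFBP1 in liver is lowered by insulin. In the gut wall IGF1 and IGF2 are made largely by cells beneath the epithelium and act on IGF1R of cells nearby.

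RNA came from the colonic mucosa and the liver of Duroc × Landrace × Large White castrated male pigs aged 170 days. From the age of 70 days, for 100 days, they had free access to a diet holding purified starch at 230 and then 280 g/kg. That starch was corn starch (CS) in the control group and raw potato starch (RPS), much of which escapes digestion in the small intestine, in the treated group. Feed was withheld before transport and slaughter, so the levels are those of fasted pigs of both diets. Each of the 16 arrays, 4 for each diet in each tissue, measured 1 sample in 1 colour on a porcine oligonucleotide array. The 4 arrays of a group shared a slide that held no other group. An effect of the slide therefore cannot be told apart from one of the diet or of the tissue. Of the non-control probes, 64.9 to 72.2% were well above background on the colon arrays and 61.1 to 65.9% on the liver arrays, by the scanner software's own flag. The colon slides differed in this, with 68.8 to 72.2% in CS and 64.9 to 68.1% in RPS, and in median signal before normalization, with 56.3 to 70.8 in CS and 34.2 to 42.5 in RPS. These array differences and the colon diet groups cannot be told apart.

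Levels are log2 normalized signals of single probes and differences are differences of those levels. The leading probe of a gene is the one with the highest mean over the 16 arrays. Levels compared between tissues come from 16 arrays normalized together, and levels compared between diets come from the 8 arrays of that tissue normalized together. A probe's signal depends on its sequence, so the levels of the axis genes were not set against each other. Where the brightest probe of a marker list is named, it is the probe that gave the largest part of the summed signal, which does not rank the transcripts.

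The tissue labels were checked against defining markers. Of 10 hepatocyte markers 8 were on the array, and 8 of 8 were higher in liver. Their summed signal lay between 1696000 and 1923000 on the liver arrays, with SERPINC1 or FGG the brightest probe, and between 444.8 and 967.2 on the colon arrays. TTR and FGG were well above background on 0 of 8 colon arrays, at least 36848-fold and at least 34919-fold lower than in liver. Such a bound sets the mean of the brighter tissue against the mean of the dimmer one, with each dim array counted at the higher of its own signal and the lowest signal that was well above background. Of 11 colon epithelium markers 9 were on the array, and 9 of 9 were higher in colon, where their sum lay between 183500 and 860700 with LGALS4 the brightest probe, against 603.2 to 1233 in liver. CDX2, KRT20 and SLC26A3 were well above background on 0 of 8 liver arrays, at least 47.8-fold, at least 2566-fold and at least 585-fold lower than in colon.

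Several arrays stood apart from the others of their group. Colon CS replicate 3 and colon RPS replicate 2 had high lymphocyte markers, of which 5 of 6 were on the array and 5 of 5 were well above background on all 8 colon arrays. The summed lymphocyte signal was 1244, 2996, 11600 and 2373 in CS replicates 1 to 4 and 1312, 9284, 1122 and 625.2 in RPS replicates 1 to 4, with MS4A1 the brightest probe in the high pair. In the same pair the epithelial sum was low, at 183500 and 295700, against 576100 to 860700 on the other colon arrays. Colon CS replicate 4 had high signal for adipocyte genes, a list chosen after the values were seen, of which 7 of 7 were on the array and well above background there. Their summed signal was 5092, 2798, 6974 and 72880 in CS and 4509, 7775, 6054 and 3185 in RPS. The brightest probe was that of FABP4 in CS replicate 4 and that of LIPE on the other colon arrays. ADIPOQ was at 8.43, 1.51, 9.52 and 13.73 in CS and 1.25, 8.64, 9.10 and 5.14 in RPS, and PLIN1 was well above background on 2 of 8 colon arrays. In liver, RPS replicate 3 had the highest IGF1, IGF2 and IGFALS and the lowest IGFBP2, IGFBP3 and IGFBP5 of the 8 arrays at their leading probes. It also had the lowest summed signal of the 8 for the fibroblast and matrix list (2217, others 3438 to 5225), the smooth muscle list (8490, others 8647 to 15370), the macrophage and Kupffer list (23220, others 24400 to 31190, brightest probe CD14) and the colon epithelium list (603.2, others 703 to 1233). The hepatocyte sum on this array, 1774000, lay within that of the others. In colon IGF1 and IGF2 at their leading probes had their lowest values, and IGFBP2, IGFBP4 and IGFALS their highest, on the pair with high lymphocyte markers. GHR and IGFBP3 had their highest values on CS replicate 4, while IGF1R, IGFBP1 and IGFBP5 on these arrays lay within the range of the others. The part of the marked cells in any difference was not tested.

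**Figure D1:**
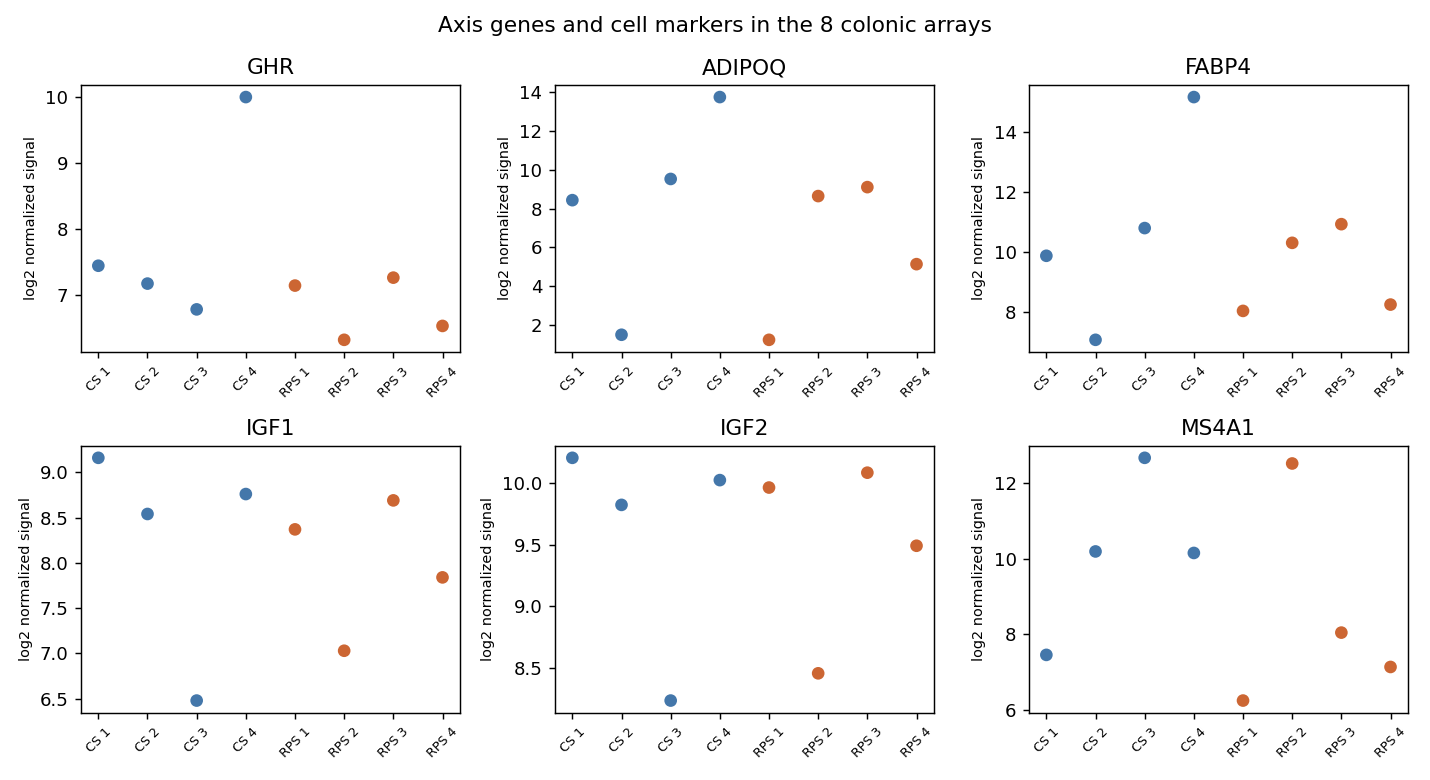
Log2 normalized signal of GHR, IGF1, IGF2, the adipocyte genes ADIPOQ and FABP4 and the lymphocyte gene MS4A1 on each of the 8 colon arrays, CS in blue and RPS in orange. CS replicate 3 and RPS replicate 2 hold the lowest IGF1 and IGF2, and CS replicate 4 holds the highest GHR, at 10.

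The first comparison set colon against liver, to show where each component of the axis was transcribed. A probe was called when its limma p, adjusted over all 43603 probes, was under 0.05 and its fold change was above 1.5. Of the 23 probes, 17 were called higher in liver, where 18.7% of all probes were called, and 1 was called higher in colon, where 23.4% were called. The arrays of the tissues did not overlap for 17 probes higher in liver and 1 higher in colon, against 12.2% and 14.6% of all probes. The median difference, colon minus liver, was -3.89 for the 23 probes and 0.012 for all probes. The called probes belong to 7 genes higher in liver and 1 higher in colon, and several probes to the same gene are not separate observations. In these mixed tissues, fewer cells of a type and less RNA per cell cannot be told apart.

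GHR binds growth hormone at the cell surface and signals through JAK2 and STAT5. Its leading probe had a lowest, median and highest level of 6.33, 7.17 and 10 on the colon arrays and of 12.90, 13.25 and 13.82 on the liver arrays. Every colon array was below every liver array, and a single colon array, CS replicate 4, stood well above the other colon arrays. Colon minus liver was -5.98 (SE 0.37, 95% interval -6.79 to -5.18), 63.3-fold lower in colon with an adjusted p of 6.79e-09. The 4 GHR probes gave -5.92 to -6.14. The leading probe gave -5.54 within CS and -6.43 within RPS, and -6.37 over all arrays but colon CS replicate 4. In order, the GHR group means were 13.44 ± 0.27 (SD) in liver CS, 13.20 ± 0.34 in liver RPS, 7.86 ± 1.46 in colon CS and 6.82 ± 0.46 in colon RPS, and the diets of a tissue did not differ beyond their spread.

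IGF2 is a growth factor made in adult pig liver and in mesenchymal cells. Its leading probe had a lowest, median and highest level of 8.24, 9.89 and 10.20 in colon and of 13.10, 13.40 and 13.77 in liver. No colon array reached the level of any liver array, and the lowest pair in colon was CS replicate 3 and RPS replicate 2. The difference was -3.89 (SE 0.29), 14.8-fold lower in colon with an adjusted p of 3.92e-08, and the 5 probes gave -3.22 to -4.14. Within CS it was -3.88 and within RPS -3.90. The group means ran from 13.47 ± 0.08 in liver CS and 13.37 ± 0.29 in liver RPS to 9.57 ± 0.90 in colon CS and 9.50 ± 0.74 in colon RPS.

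IGF1, the hormone that growth hormone induces in liver, was not called between the tissues. Its leading probe had a lowest, median and highest level of 6.48, 8.45 and 9.16 in colon and of 7.83, 8.73 and 9.81 in liver, so the tissues overlapped. Colon minus liver was -0.72 (SE 0.43, 95% interval -1.65 to 0.21, adjusted p 0.182), and it was -0.43 without colon CS replicate 3 and -0.27 without both lymphocyte-rich colon arrays. The IGF1 probe next in level gave -0.03 (95% interval -1.11 to 1.06), and the remaining one was well above background on 1 of 16 arrays. The leading IGF1 probe had group means of 8.85 ± 0.78 in liver RPS, 8.81 ± 0.89 in liver CS, 8.24 ± 1.20 in colon CS and 7.98 ± 0.72 in colon RPS, with no neighbours apart by more than their spread.

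IGF1R, the tyrosine kinase receptor for IGF1 and IGF2, was dim in both tissues. Its leading probe had a lowest, median and highest level of 4.08, 4.57 and 5.29 in colon and of 4.46, 4.64 and 5.12 in liver. The ranges overlapped nearly throughout, and the difference was -0.12 with an adjusted p of 0.539. The other IGF1R probe gave 0.13 and was well above background on 5 of 8 colon arrays and 1 of 8 liver arrays, so it carried little.

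IGFBP2 binds IGF1 and IGF2 and is a main binding protein in blood after IGFBP3. Its leading probe had a lowest, median and highest level of 7.31, 8.05 and 8.57 in colon and of 14.41, 15.65 and 16.11 in liver. The tissues were far apart on every array. The difference was -7.54, 187-fold lower in colon with an adjusted p of 7.72e-12, and the other IGFBP2 probe gave -7.48, but it shares 52 of its 60 bases with the leading one and is no separate measurement.

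IGFBP4, which holds IGFs back from the receptor, had a lowest, median and highest level of 8.46, 8.67 and 9.51 in colon and of 12.85, 13.42 and 13.92 in liver. Here too the arrays of the tissues did not overlap, and the highest pair in colon was CS replicate 3 and RPS replicate 2, the pair with high lymphocyte markers. The IGFBP4 difference was -4.52 at the leading probe and -5.20 at the other, 23.0-fold and 36.6-fold lower in colon. IGFBP3, the main carrier of IGFs in blood, had a lowest, median and highest level of 5.54, 6.96 and 7.81 in colon and of 8.73, 10.10 and 10.24 in liver. The liver level of IGFBP3 was low on a single array, RPS replicate 3, which still lay above every colon array. The IGFBP3 difference was -3.17, 9.03-fold lower in colon with an adjusted p of 1.28e-06.

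IGFALS, which joins IGFBP3 and an IGF to form the long-lived complex in blood, had a lowest, median and highest level of 2.41, 3.51 and 4.08 in colon and of 7.02, 7.93 and 9.44 in liver. It was well above background on 4 of 4 CS and 2 of 4 RPS colon arrays and on all 8 liver arrays, and the tissues did not overlap. The fitted difference was -4.62 with an adjusted p of 2.25e-08, and the bound was at least 23.6-fold lower in colon.

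The IGFBP1 probes differed from each other. One, A_72_P176276, had a lowest, median and highest level of 0.76, 1.41 and 2.80 in colon and of 13.59, 14.95 and 16.46 in liver. All 8 liver arrays and 1 of 8 colon arrays, a CS array, measured it well above background. Within RPS, where 0 of 4 colon arrays measured it, IGFBP1 at this probe was at least 4693-fold lower in colon, with group means of 1.51 in colon and 15.14 in liver. The other, A_72_P115916, had a lowest, median and highest level of 10.38, 10.69 and 11.16 in colon and of 11.23, 11.53 and 12.43 in liver, and all 16 arrays measured it well above background. Its difference was -0.98, 1.97-fold lower in colon with an adjusted p of 0.000641. Both probes gave liver the higher level without overlap, but their sizes cannot be brought to a single value for IGFBP1, and why they differ was not tested.

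IGFBP5, a binding protein of matrix-rich tissue, was the exception in direction. Its probe had a lowest, median and highest level of 8.47, 8.79 and 9.49 in colon and of 6.61, 7.13 and 7.50 in liver. Every colon array was above every liver array. Colon minus liver was 1.77 (SE 0.14), 3.40-fold higher in colon with an adjusted p of 6.29e-08, and it was 1.77 within CS and 1.76 within RPS. Of the fibroblast and matrix markers, 4 of 8 were on the array, 3 of them higher in colon and 1 higher in liver. Of the smooth muscle markers 3 of 6 were on the array, 2 of them higher in colon and 0 higher in liver. The part of these cells in the IGFBP5 difference was not tested.

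**Figure D2:**
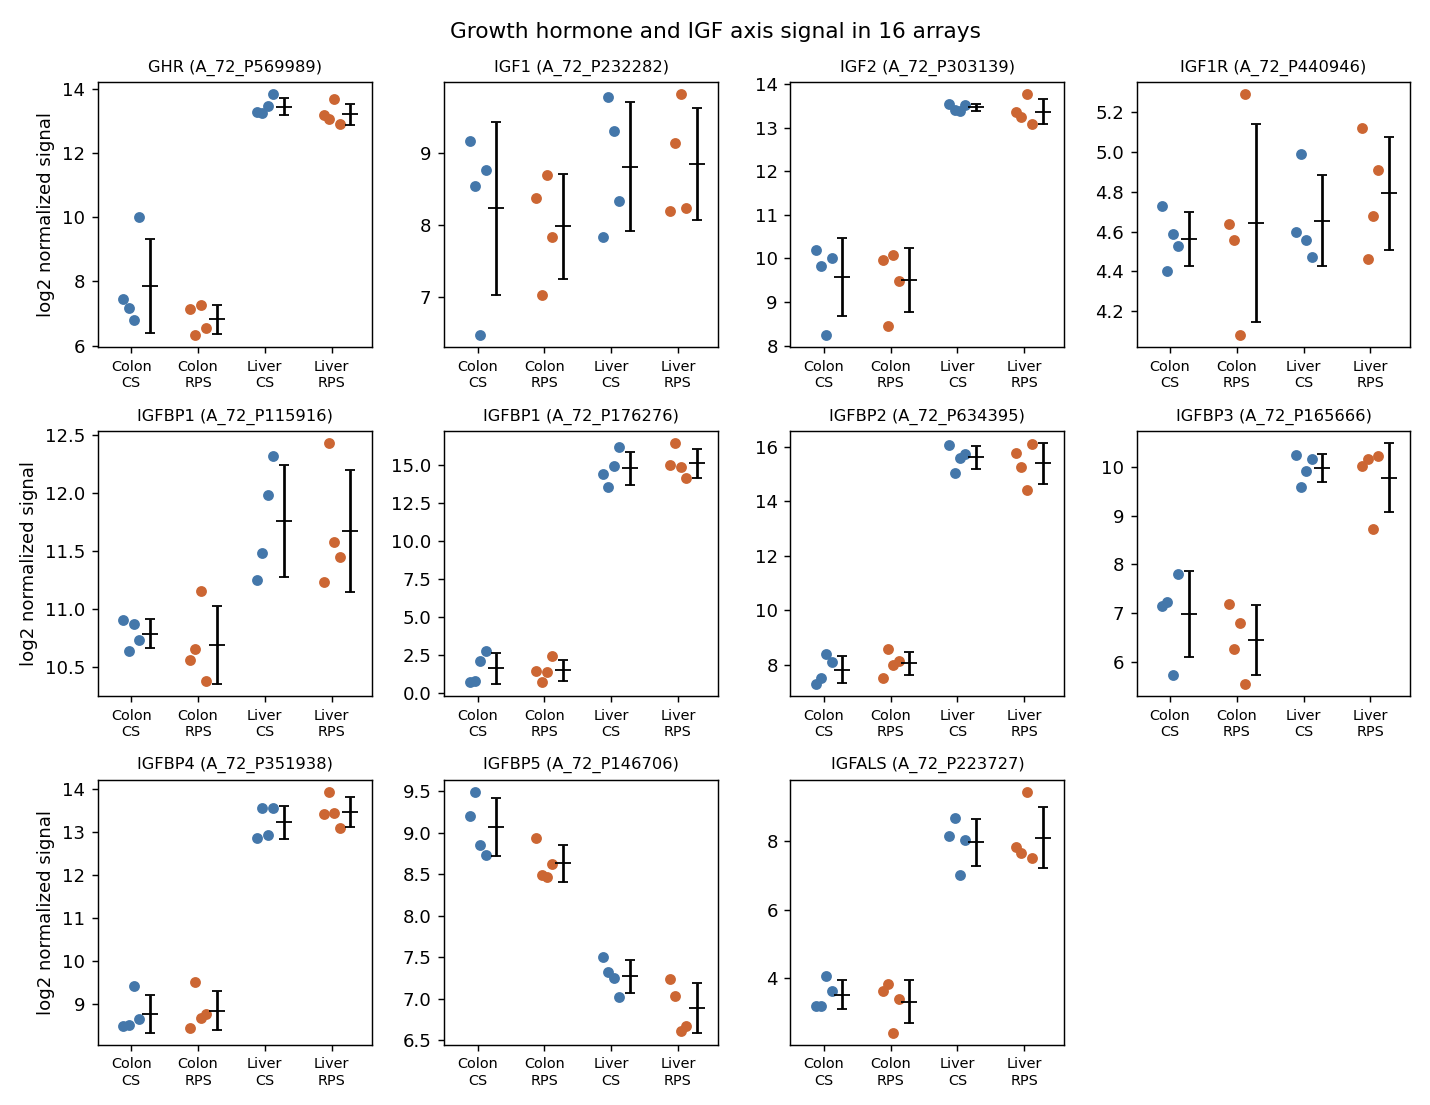
Log2 normalized signal of the leading probe of each axis gene and of the other IGFBP1 probe on the 16 arrays, 4 for each group, with points for arrays and bars for the group mean ± SD. GHR, IGF2 and IGFBP2 lie higher on every liver array than on any colon array, and IGFBP5 lies higher on every colon array.

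The second comparison set RPS against CS within each tissue, to show whether the diet moved transcripts of the axis. A probe was counted as changed when its unadjusted limma p was under 0.05 and its fold change was above 1.5, the thresholds of the study's methods. In colon 0 of 23 probes passed both, where 2.94% of all probes did, 1283 in number, or 2635 without colon RPS replicate 2. In liver 0 of 23 passed, where 3.56% of all probes did, 1554 in number. By limma 0 of 23 were under an unadjusted p of 0.05 in either tissue, and by the methods' t-test again 0 of 23. The arrays of the diets did not overlap for 0 of 23 probes in colon, against 6.52% of all probes, and for 0 of 23 in liver, against 4.45%. After adjustment over all probes limma called 0 probes in colon, where 2362 were under an unadjusted p of 0.05, and 1 in liver, where 3309 were. The methods' t-test had 3488 and 2899 probes under 0.05, and 0 and 1 after adjustment.

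The median difference, RPS minus CS, was -0.25 for the 23 probes and 0.013 for all probes in colon, and -0.10 for the 23 probes and -0.0038 for all probes in liver. In each tissue 17 of 23 probes had a negative estimate, and these probes include several to the same gene, which are not separate observations. The estimate farthest from 0 was -1.02 in colon, at GHR A_72_P585071, and -0.97 in liver, at the dim IGF1 A_72_P306168.

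IGFBP5 came nearest to the thresholds in both tissues. In colon it was at 9.39, 9.67, 9.05 and 8.93 in CS and at 9.13, 8.69, 8.67 and 8.82 in RPS. In liver it was at 7.28, 7.11, 7.02 and 6.79 in CS and at 7.01, 6.80, 6.37 and 6.44 in RPS. The lower values were mostly those of RPS, but the diets overlapped in each tissue. The IGFBP5 difference was -0.43 in colon (SE 0.19, 95% interval -0.88 to 0.03, limma p 0.0612, adjusted 0.933) with a two-sided exact permutation p of 0.0857. It was -0.40 in liver (SE 0.17, 95% interval -0.81 to 0.01, limma p 0.0551, adjusted 0.666) with an exact permutation p of 0.0857. The smallest p this exact test can give with 4 arrays against 4 is 0.0286. With 1 array left out the IGFBP5 estimate in colon ran from -0.54 without CS replicate 4 (limma p 0.0305, adjusted 0.998) to -0.29 without CS replicate 2 (limma p 0.141). In liver it ran from -0.52 without RPS replicate 1 (limma p 0.0172, adjusted 0.743) to -0.30 without RPS replicate 3 (limma p 0.133), and it stayed under 1.5-fold in both tissues. With the replicate number as a block the IGFBP5 estimate had a limma p of 0.0173 in liver (adjusted 0.638) and 0.0815 in colon, again under 1.5-fold, and it was negative in 4 of 4 pairs of the same number in each tissue. Pigs were allocated in blocks, but no label ties an array number to a block.

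Markers of smooth muscle and of matrix were read beside IGFBP5, a choice made after its values were seen. The summed signal of the smooth muscle list was 28630, 30070, 27680 and 28700 in CS and 22090, 17880, 23320 and 17680 in RPS, with ACTA2 the brightest probe on all 8 colon arrays. Every RPS array was below every CS array in this sum. ACTA2 differed by -0.52 (limma p 0.00473, adjusted 0.573), CNN1 by -0.48 (limma p 0.0665) and DES by -0.28 (limma p 0.0306), each under 1.5-fold. The summed signal of the fibroblast and matrix list was 16380, 13080, 12510 and 20000 in CS and 12840, 14240, 11010 and 9119 in RPS, with DCN the brightest probe, and the diets overlapped. COL1A2 passed both thresholds in colon at -0.72 (limma p 0.0173, adjusted 0.803), while DCN at -0.33, LUM at -0.29 and THY1 at 0.20 did not. In liver the matrix sum was 5225, 4303, 5203 and 3865 in CS and 4034, 3438, 2217 and 4645 in RPS, with DCN the brightest probe on all but RPS replicate 3, where it was THY1. COL1A2 differed by -0.69 there, DCN by -0.64, LUM by -0.04 and THY1 by 0.33. The smooth muscle sum in liver lay between 8647 and 13230 in CS and between 8490 and 15370 in RPS. None of the measured markers of these lists was near background on any of the 16 arrays, and their part in the IGFBP5 estimates was not tested.

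GHR had the estimate farthest from 0 in colon. It was at 7.67, 7.41, 7.03 and 10.17 in CS and at 7.39, 6.58, 7.49 and 6.78 in RPS. CS replicate 4, the array with high adipocyte genes, was far above the rest, and the other arrays of the diets overlapped. The GHR difference was -1.01 (95% interval -2.60 to 0.59) with an exact permutation p of 0.171, and without CS replicate 4 it was -0.31 with a limma p of 0.320. In liver GHR was at 13.26, 13.24, 13.46 and 13.84 in CS and at 13.18, 13.02, 13.70 and 12.88 in RPS, with RPS replicate 3 among the CS values. The liver difference was -0.26 (95% interval -0.76 to 0.25). Without liver CS replicate 4 it was -0.13 at the leading probe, and without liver RPS replicate 4 it was -0.18 at GHR A_72_P441429 and -0.13 at GHR A_72_P303059. Without liver RPS replicate 3 it was -0.43 at the leading probe (limma p 0.0488, under 1.5-fold), and 3 of 23 probes then passed both thresholds, where 1581 of 43603 did. These were GHR A_72_P441429 at -0.63 (limma p 0.0128), GHR A_72_P303059 at -0.59 (limma p 0.0242) and IGF1 A_72_P306168 at -1.50 (limma p 0.0308), the last well above background on 1 of 8 liver arrays. The GHR probes among them share 45 of their 60 bases. IGF1 A_72_P306168 also passed without liver CS replicate 1, at -1.50, and IGF1R A_72_P146851 passed without liver RPS replicate 1, at -0.92, also well above background on 1 of 8.

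IGF1 in liver was at 7.62, 9.60, 9.12 and 8.13 in CS and at 7.99, 8.95, 9.64 and 8.04 in RPS. High and low arrays occurred in both diets, and the difference was 0.04 with a wide 95% interval of -1.24 to 1.31. In colon IGF1 was at 9.35, 8.74, 6.73 and 8.95 in CS and at 8.57, 7.26, 8.88 and 8.06 in RPS. The lowest value of each diet was on the array with high lymphocyte markers, and the difference was -0.25 (95% interval -1.71 to 1.22). Without both lymphocyte-rich arrays it was -0.52 (SE 0.27, limma p 0.115, adjusted 0.644) at the leading IGF1 probe and -0.63 at A_72_P185381, and with 1 array left out it ran from -0.83 without CS replicate 3 to 0.060 without RPS replicate 2.

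IGF2 in colon was at 10.36, 9.99, 8.44 and 10.18 in CS and at 10.13, 8.66, 10.25 and 9.67 in RPS, and in liver at 13.57, 13.42, 13.38 and 13.55 in CS and at 13.37, 13.24, 13.80 and 13.09 in RPS. The diets overlapped in both tissues, with the same low pair of colon arrays as for IGF1. The IGF2 difference was -0.07 in colon (95% interval -1.29 to 1.16) and -0.10 in liver (95% interval -0.47 to 0.26). Without liver RPS replicate 3 the liver difference of IGF2 was -0.25 at the leading probe (limma p 0.0476, adjusted 0.650), -0.30 at A_72_P599193 and -0.48 at A_72_P544532, each under 1.5-fold, and without liver RPS replicate 4 it was -0.0093 at the leading probe. With both lymphocyte-rich colon arrays left out, an alternative chosen after the values were seen, 1 of 23 probes passed both thresholds in colon, where 2385 of 43603 did, IGF2 A_72_P544532 at -0.64 with a limma p of 0.0374 and an adjusted one of 0.517.

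The binding proteins in liver gave intervals on both sides of 0. IGFBP2 was at 16.09, 15.10, 15.64 and 15.77 in CS and at 15.82, 15.31, 14.47 and 16.13 in RPS, a difference of -0.22 (95% interval -1.10 to 0.67). IGFBP3 was at 10.07, 9.42, 9.76 and 10.01 in CS and at 9.86, 10, 8.53 and 10.06 in RPS, a difference of -0.21 (95% interval -1.04 to 0.63). IGFALS was at 7.95, 8.48, 6.79 and 7.82 in CS and at 7.62, 7.46, 9.26 and 7.28 in RPS, a difference of 0.14 (95% interval -1.08 to 1.37). RPS replicate 3 was the lowest array for IGFBP2 and IGFBP3 and the highest for IGFALS, and the diets overlapped for all of them. IGFBP4 differed by 0.25 (95% interval -0.35 to 0.84), and by 0.086 without RPS replicate 2 and 0.38 without RPS replicate 4. IGFBP1 differed by -0.09 at its leading probe A_72_P115916 (95% interval -0.90 to 0.72) and by 0.34 at A_72_P176276 (95% interval -1.18 to 1.87), so its sign depended on the probe. IGF1R differed by 0.14 at its leading probe, or 0.026 without RPS replicate 1, and by -0.70 at the other, which was well above background on 1 of 8 liver arrays.

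In colon the other leading probes gave estimates of either sign. IGFBP3 differed by -0.53 (95% interval -1.72 to 0.67), and by -0.93 without CS replicate 3, -0.26 without CS replicate 4 and -0.23 without RPS replicate 4. IGFBP2 differed by 0.22 (95% interval -0.48 to 0.93), or 0.051 without CS replicate 1, and IGF1R by 0.08 (95% interval -0.49 to 0.65). IGFALS differed by -0.21 (95% interval -1.02 to 0.61) and IGFBP4 by 0.07 (95% interval -0.61 to 0.75), with -0.30 at the other IGFBP4 probe. IGFBP1 differed by -0.09 at its leading probe A_72_P115916 (95% interval -0.50 to 0.32) and by -0.11 at A_72_P176276 (95% interval -1.67 to 1.45). The latter was well above background on 1 of 8 colon arrays. The colon intervals of GHR, IGF1, IGF2, IGFBP3, IGFBP4 and IGFALS reached past a 1.5-fold change in both directions, so they bound these genes only loosely. The same holds for IGFBP1 at A_72_P176276.

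**Figure D3:**
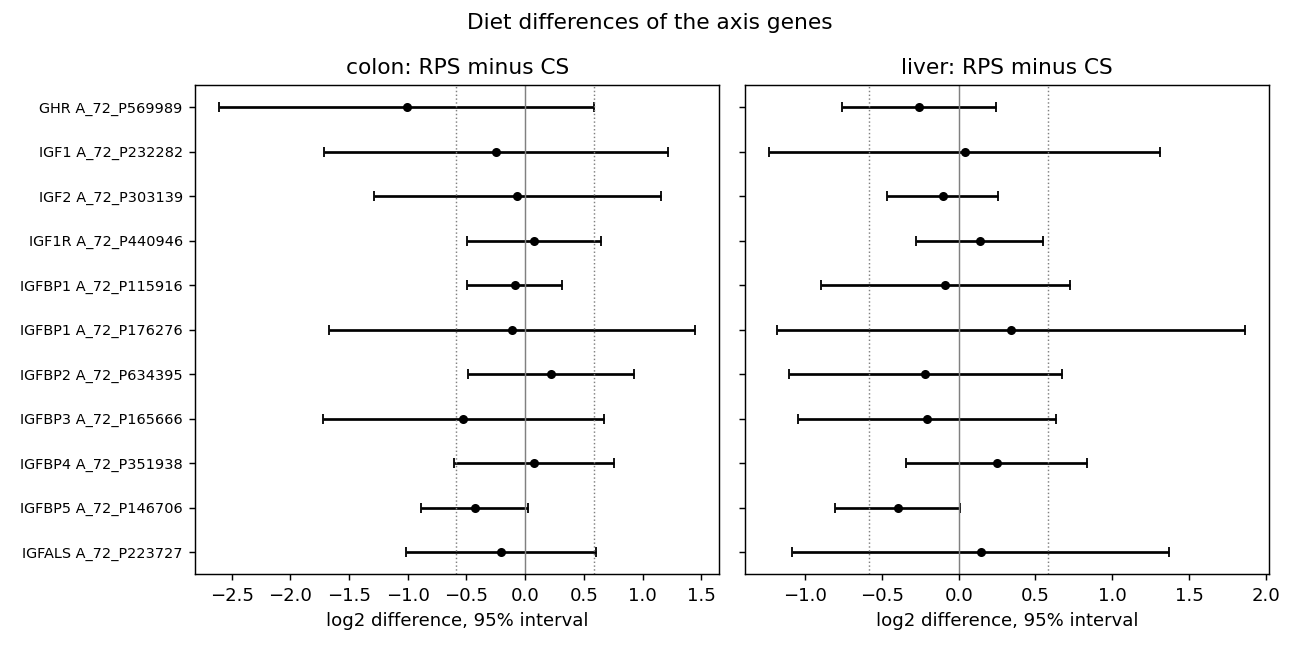
Difference in log2 normalized signal, RPS minus CS, of the leading probe of each axis gene and of the other IGFBP1 probe in colon and in liver, with 95% intervals from limma and dotted lines at a 1.5-fold change. Each interval includes 0, and IGFBP5 lies nearest to excluding it, at -0.43 in colon and -0.40 in liver.

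Whether the diet difference itself differed between the tissues was tested as an interaction over the 16 arrays. After adjustment limma called 1 of 43603 probes, with 2059 under an unadjusted p of 0.05. The count was 4 without liver CS replicate 3, 2 without liver CS replicate 4, 6 without liver RPS replicate 4, 2 without colon CS replicate 3 and 5 without colon RPS replicate 2. Of the 23 axis probes 0 were under an unadjusted limma p of 0.05, and the smallest was 0.0695, for IGFBP4 A_72_P441554, whose estimate, colon diet difference minus liver diet difference, was -0.61. The leading IGFBP4 probe, A_72_P351938, gave -0.16 with a limma p of 0.689.

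Covariation among the axis genes was examined over the 8 liver arrays, in 45 pairs of leading probes. No such correlation was computed for the colon arrays alone, because CS replicate 3 and RPS replicate 2 lay apart from the others in several axis genes, as for IGF1 and IGF2. In liver 8 pairs had an exact permutation p under 0.05 for Pearson's r and 1 remained under 0.05 after adjustment over the 45. That pair was IGF1 and IGFBP2, with r of -0.888 (exact permutation p 0.00109, adjusted 0.0491) and rho of -0.905 (exact p 0.00456, adjusted 0.138). Its r was -0.932 within CS and -0.971 within RPS, -0.903 after subtraction of the diet means, and -0.818 without the 2 arrays farthest from the median of IGF1. Arrays with high IGF1 thus had low IGFBP2 in both diets, although the rank correlation did not pass after adjustment. IGF1 lay between 7.62 and 8.13 on 4 arrays, replicates 1 and 4 of each diet. It lay between 8.95 and 9.64 on the other 4, replicates 2 and 3 of each diet. The relation is in part one between these sets, and the permutation took no account of shared replicate numbers. The within-diet values rest on 4 arrays each and are given as descriptions.

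No other pair passed after adjustment. IGF1 and IGFBP3 had r of -0.752 (exact p 0.00367, adjusted 0.0714) and rho of -0.857 (exact p 0.0107, adjusted 0.138), and r was -0.592 without the 2 farthest arrays, -0.955 within CS and -0.807 within RPS. IGFBP2 and IGFBP3 had r of 0.899 (exact p 0.00476, adjusted 0.0714) and rho of 0.857 (exact p 0.0107, adjusted 0.138), with r of 0.966 within CS and 0.887 within RPS. That relation rested on CS replicate 2 and RPS replicate 3, since r was 0.394 without them. GHR and IGF2 had r of 0.814 (exact p 0.0138, adjusted 0.155) and rho of 0.833 (exact p 0.0154, adjusted 0.138), and r was 0.76 without the 2 farthest arrays. It held within RPS (r 0.999) and was weak within CS (r 0.277). The smallest adjusted p of rho over the 45 pairs was 0.138. The array RPS replicate 3, at one end of the relations with IGFBP2 and IGFBP3, is the one with low matrix, muscle and macrophage sums, whose part in them was not tested.

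**Figure D4:**
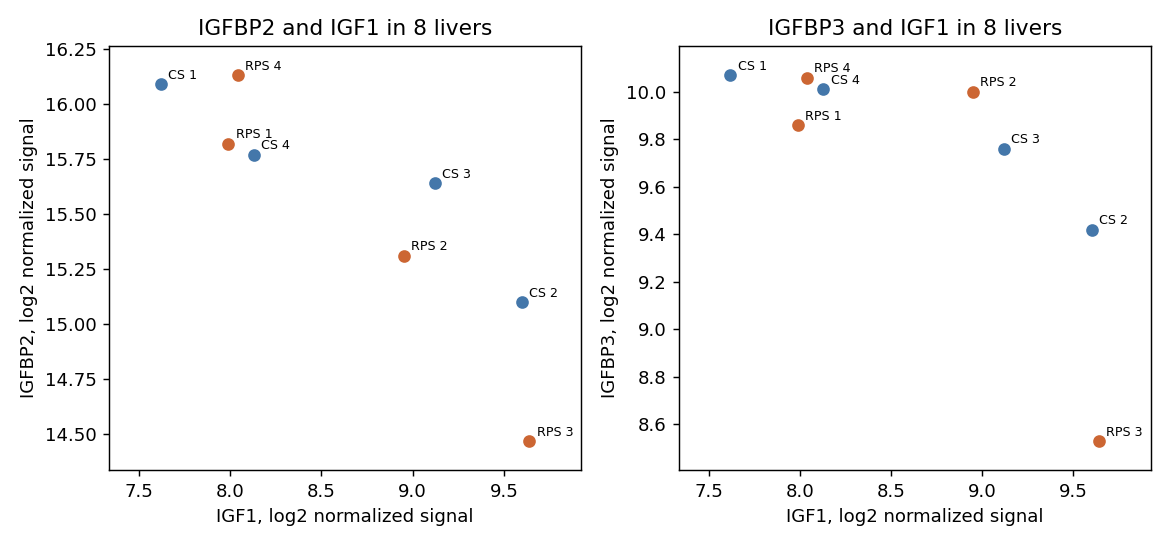
Log2 normalized signal of IGFBP2 and of IGFBP3 plotted against that of IGF1, 1 point for each of the 8 liver arrays, CS in blue and RPS in orange. IGF1 falls as IGFBP2 rises in both diets, with r of -0.888 over the 8 arrays.

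Outside the axis, the genes with a probe that moved most like that of IGF1 over the 16 arrays, after subtraction of the 4 group means, were ALDH18A1 (r 0.920), POMGNT1 (r 0.909) and MAPK14 (r 0.887), out of 9374 probes with a symbol that every array measured well above background, of which a gene may have several. Without both lymphocyte-rich colon arrays, where IGF1 was low, these r were 0.833, 0.848 and 0.857. Those most like GHR were CIDEC (r 0.930), SLC38A3 (r 0.9205) and OLF42-3 (r 0.914). The likeness to GHR rested on colon CS replicate 4, without which r was 0.550, 0.588 and 0.452.

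Genes that act with the axis were read at their leading probes from lists of its pathway, of which 39 of 60 were on the array. Between the tissues 11 were called higher in colon and 10 higher in liver, where 23.4% and 18.7% of all probes were called. Of the growth hormone signalling list, 12 of 14 were on the array, 6 higher in colon and 4 higher in liver. PRLR, the prolactin receptor, was well above background on 0 of 8 colon arrays and was at least 5.52-fold lower in colon (adjusted p 2.82e-10). SOCS2, a feedback inhibitor of GHR, differed by -2.45, 5.45-fold lower in colon, and PTPN6, a phosphatase abundant in blood cells, by 2.13, 4.37-fold higher in colon. Of the IGF and insulin receptors and their substrates 7 of 12 were on the array, 1 higher in colon and 3 higher in liver. IRS1, a docking protein of both receptors, differed by -2.05, 4.15-fold lower in colon, and the adaptor GRB2 by 0.92, 1.89-fold higher in colon. INS, which encodes insulin, was called although 0 of 8 arrays of either tissue measured it well above background, so it has no fold.

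Of the other IGF-binding proteins and proteases 8 of 12 were on the array, 2 higher in colon and 2 higher in liver. The protease MMP7 had a fitted difference of -7.11 and was well above background on 5 of 8 colon arrays. The fitted difference of IGFBPL1 was 2.30, with 7 of 8 liver arrays well above background, and that of the kallikrein KLK1 1.92, with 6 of 8. With some arrays not well above background, these fits measure no exact fold. Of the IGF2 mRNA-binding proteins 1 of 3 was on the array, IGF2BP2, which was 7.81-fold higher in colon at a difference of 2.96. Of the PI3K-AKT branch 11 of 19 were on the array, 1 higher in colon and 1 higher in liver. These were the kinase AKT1, at 1.08, and the transcription factor FOXO3, at -0.70 with an adjusted p of 0.0462. FOXO3 lost its call under 15 of 27 alternatives, and without both lymphocyte-rich colon arrays it was at -0.42 with an adjusted p of 0.158.

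With diet 0 of the 39 pathway genes passed both thresholds in liver and 2 passed in colon, 1 in each direction, by limma, where 3.56% and 2.94% of all probes passed. The counts lie near those shares. MMP7 was at 3.00 ± 0.36 (SD) in CS, well above background on 1 of 4 arrays, and at 4.09 ± 0.43 in RPS, on 4 of 4. Its fitted estimate was 1.09 with a limma p of 0.00412 and an adjusted one of 0.560, and with 3 of 4 CS arrays not well above background it measures no exact fold. MMP7 missed the thresholds with normexp background correction, at 0.18, and with all 16 arrays in 1 fit, at a limma p of 0.0609. CTSD, a lysosomal protease that can cleave IGF-binding proteins, was at 13.25 ± 0.13 in CS and 12.23 ± 0.51 in RPS, a difference of -1.02 with a limma p of 0.00409 and an adjusted one of 0.560. The remaining cell lists gave no more than a single gene past both diet thresholds in either tissue. In liver this was CA1 of the colon epithelium list, named after its values were seen, and for the smooth muscle, endothelium, macrophage and Kupffer, lymphocyte, hepatocyte and adipocyte lists it was 0 in both tissues. In colon the median diet difference was -1.59 over the 5 lymphocyte genes and -0.48 over the 7 adipocyte genes. The arrays already named for a high lymphocyte sum were 1 in each diet. On the other colon arrays that list's mean log2 signal was 7.30, 8.94 and 8.58 in CS and 6.60, 7.30 and 6.57 in RPS. The adipocyte sum was high on CS replicate 4. The part of either list in the diet estimates of the axis was not tested. Between the tissues the endothelium list, with 4 of 5 on the array, had 1 higher in colon and 2 higher in liver, and the macrophage and Kupffer list, with 2 of 5, had 0 and 2. The lymphocyte list had 5 higher in colon and 0 higher in liver, and the adipocyte list 4 and 1.

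Several probes to a gene overlap in sequence and are not separate measurements of it. They are shown, 5′ to 3′, for the pair of IGF2 probes that share 38 of their 60 bases, in capitals, and for a GHR probe that shares 45 bases, in capitals, with GHR A_72_P303059. The IGFBP5 probe, the only one called higher in colon, is shown whole in lower case because the gene has no other probe.
IGF2 A_72_P537638: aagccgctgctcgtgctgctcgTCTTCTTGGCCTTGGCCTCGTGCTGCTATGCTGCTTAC
IGF2 A_72_P537644: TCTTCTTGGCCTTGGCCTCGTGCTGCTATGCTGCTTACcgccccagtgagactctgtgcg
GHR A_72_P441429: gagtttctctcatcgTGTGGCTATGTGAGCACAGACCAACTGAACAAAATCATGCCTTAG
IGFBP5 A_72_P146706: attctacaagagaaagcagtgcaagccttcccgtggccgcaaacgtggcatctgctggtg

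In the RefSeq annotation of the pig genome, build Sscrofa11.1, IGFBP2 and IGFBP5 are neighbours, IGFBP3 and IGFBP1 are neighbours, and IGF2 lies beside INS. The neighbours IGFBP2 and IGFBP5 were called in opposite directions between the tissues, 187-fold lower and 3.40-fold higher in colon. IGFBP3 and IGFBP1 were both lower in colon, at the sizes their probes gave.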

How the data were processed

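Members and gene lists were chosen with earlier results of these data known. The authors deposited Agilent Feature Extraction 10.7 files for 16 arrays, whose processed signal is an intensity per the file headers, and a deposited table of log2 normalized values, used only as an alternative. From the deposited intensity, spots for controls were dropped, those with an outlier mark became missing, and log2 values underwent quantile normalization within each tissue (diet, 8 arrays) or across both (tissue, interaction, 16 arrays) before averaging per probe, with no filter on signal. limma 3.58.1 in R 4.3.3 (with package data.table, 1.17.8) gave each p, adjusted by Benjamini-Hochberg over 43603 probes, with groups as labelled. Exact permutation tests of the diets and the likeness to IGF1 and GHR were also computed in R. Correlations over the liver arrays and their exact permutation tests used Python 3.11.15 with numpy 2.4.6, and figures matplotlib 3.10.9. The methods' t-test was run beside limma. A diet change needed a fold change above 1.5 together with a p, not adjusted, under 0.05, a tissue call an adjusted p under 0.05 with the same fold, and an interaction an adjusted p under 0.05. The number of arrays limits the precision.

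Genes named were all members, list genes past both diet thresholds, the 3 called genes of each pathway list with the largest tissue difference, and the 3 genes most like IGF1 and GHR. Marker genes were also named, to check the tissue labels, to describe arrays that stood apart and to read beside IGFBP5. Alternatives were scaling to the upper quartile, normexp background correction with an offset of 50, leaving out dim probes, a fold of 2, another variance estimate, kept outlier spots, normalization or 1 fit over all arrays, each diet alone, a replicate block, slide as a random block, and each array left out. Leaving out both lymphocyte-rich colon arrays, and the adipocyte list, were added after the data were seen. The steps were tested on simulated data.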

Additional observations from a re-analysis of the deposited data

Results flagged for a closer look

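Within each group of 4 arrays, an array was singled out when its gap to the nearest other array as a share of the group's range, exceeded Dixon's critical value for 4 values at 95%. This held for 5 of 92 groups, and chance alone singles out about 5% of groups, so the number of them is near what chance gives. IGF2 A_72_P537638 was at 7.66 on colon CS replicate 3, against 8.90 to 9.10 on the other CS arrays. IGFBP4 A_72_P351938 was at 9.61 on the same array, against 8.71 to 8.84. IGFBP4 A_72_P441554 was at 5.24 on colon RPS replicate 2, against 4.50 to 4.59. These are the arrays with high lymphocyte markers, whose part in these values was not tested. In liver, RPS replicate 3 had IGFBP3 A_72_P165666 at 8.53, against 9.86 to 10.06. It also had IGF1 A_72_P306168 at 3.21, against 1.06 to 1.09, but that probe was well above background on 0 of 4 RPS liver arrays.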

How the results depend on the processing

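Between the tissues, 18 of 23 probes were called under each of 27 alternatives, with 10833 to 19165 of all probes called. The lowest count came with normexp background correction, which adds an offset that shrinks changes of dim probes. Leaving out dim probes moved the median tissue difference of all probes to 0.145.

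For diet, 0 of 23 probes passed in each tissue under each alternative that kept all arrays. With both lymphocyte-rich arrays left out 1 passed in colon, and with 1 array left out 0 passed in colon and 0 to 3 in liver. In colon the count over all probes was 1968 with scaling to the 75th percentile, 172 with normexp, 780 without dim probes, 517 at a fold of 2, 2385 without both lymphocyte-rich arrays, and 1067 to 2635 without 1 array. In liver it was 220 with normexp, 965 without dim probes, 525 at a fold of 2, and 1408 to 2029 without 1 array. The fewer probes tested and the stricter fold lower the counts by construction. The cause of the other shifts was not tested. The interaction count was 0 with 75th percentile scaling, 0 with normexp, 13 without both lymphocyte-rich arrays, and 1 to 6 without 1 array.

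Signs changed for probes that were not called. In the colon diet comparison IGF1R A_72_P440946 was -0.0018 and IGFBP1 A_72_P176276 0.0084 with normexp, and IGFBP1 A_72_P176276 0.41 without both lymphocyte-rich arrays. In the liver diet comparison IGF1 A_72_P185381 was 0.0016 and IGF1R A_72_P440946 -0.0098 with normexp. Between the tissues IGF1 A_72_P185381 was 0.10 with 75th percentile scaling, 0.0042 with normexp, 0.11 in CS alone and 0.48 without both lymphocyte-rich arrays, and IGF1 A_72_P306168 was 0.0077 in RPS alone. IGF1R A_72_P440946 was 0.025 with 75th percentile scaling, and IGF1R A_72_P146851 was -0.0010 with normexp and -0.24 in CS alone. The cause was not tested.

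Without 1 array, the colon diet difference of IGF1 ran from -0.83 to 0.060 (A_72_P232282), -0.96 to 0.049 (A_72_P185381) and -0.028 to 0.61 (A_72_P306168). That of IGF2 ran from -0.50 to 0.27 (A_72_P303139), -0.75 to 0.060 (A_72_P599193) and -0.56 to 0.011 (A_72_P537638). That of IGF1R ran from -0.14 to 0.26 (A_72_P440946) and -0.22 to 0.33 (A_72_P146851), and that of IGFBP1 from -0.24 to 0.0089 (A_72_P115916) and -0.49 to 0.30 (A_72_P176276). IGFBP4 A_72_P351938 ran from -0.14 to 0.29 and IGFALS from -0.37 to 0.092. In liver the diet difference of IGF1 ran from -0.29 to 0.37 (A_72_P232282) and -0.47 to 0.40 (A_72_P185381), that of IGFBP1 from -0.36 to 0.11 (A_72_P115916) and -0.085 to 0.79 (A_72_P176276), and that of IGFBP2 from -0.45 to 0.10 (A_72_P634395) and -0.33 to 0.23 (A_72_P178161). IGFBP3 ran from -0.35 to 0.15 and IGFALS from -0.31 to 0.38. Between the tissues IGF1 A_72_P185381 ran from -0.20 to 0.32 and IGF1R A_72_P146851 from -0.021 to 0.28.

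Of the pathway genes, INS lost its tissue call under 16 of 26 alternatives and FOXO3 under 15 of 27. PRLR lost it with normexp (-0.55), and IGFBPL1 and KLK1 in RPS alone. MMP7 in colon with diet missed the thresholds with normexp (0.18) and with 16 arrays in 1 fit (limma p 0.0609).

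Replicate numbers as a block gave 1267 probes past both diet thresholds in colon, 1522 in liver and 18367 tissue calls, with 0, 0 and 18 of the 23 probes and 1 interaction call. That block assumes that arrays with the same number are paired, which no label states. Over 23380 probes, colon and liver arrays of the same number had correlations of 0.159 to 0.334 in CS and -0.0764 to 0.0732 in RPS. Between the diets, arrays of the same number had -0.507 to 0.549 in colon and -0.164 to 0.108 in liver. These correlations are of departures of the signals from averages over arrays, not of the signal levels themselves. Values for arrays of unlike number are not given beside them, so they do not settle whether arrays are paired. With the block FOXO3 lost its tissue call, at an adjusted p of 0.0540. With slide as a random block 18848 probes were called between the tissues. The estimated correlation within slides was -0.0462 and each slide held 1 group, so that fit says nothing of a slide effect.

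The number of arrays, 4 a group, limits the precision, and dim probes such as those of IGF1R and IGFALS in colon limit the size that can be read. RNA of whole tissue says nothing of protein, of circulating hormone or of which cells hold a transcript.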
